A study of Rattus norvegicus with 91 samples.

Results

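The plasma hormone carriers described here are 4 genes, Serpina6, Serpina7, Ttr and Gc, of 10620 genes named by 1 symbol on either array design. They were selected on measured values, since the choice used each gene's log2 signal at every time against the control arrays of the same course, so their changes from control are given as a description and without a test. Every probe set annotated to a single one of these symbols was taken, which gave 6 probe sets of 7006 on one design and 5 of 12783 on the other, and all of them passed the filter on low signal. The study measured total RNA from the liver of Wistar rats on Affymetrix arrays at times after methylprednisolone, a synthetic glucocorticoid, at 50 mg/kg. The short course has 4 control arrays labelled time 0 and 16 times from 0.25 to 72 h, with 3 arrays at each time except 2, 5, 12, 30 and 72 h, which have 2. The long course uses the other design, with 4 control arrays and 10 later times, 6 to 168 h, of 4 arrays each. The label text describes all animals, the time 0 ones included, as given the drug. It names no route, schedule, vehicle, sex, age or time of day. Nothing in it tells if replicates came from different animals, so errors and p-values cover array-to-array spread alone, possibly technical.

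Serpina6 encodes corticosteroid-binding globulin, the plasma protein that carries corticosterone. Serpina7 encodes thyroxine-binding globulin, and both proteins are non-inhibitory members of the serpin family. Ttr encodes transthyretin, which carries thyroid hormone and, bound to the retinol-binding protein, retinol. Gc encodes the vitamin D-binding protein, a relative of albumin. Hepatocytes make and secrete all of them, and the carrier sets how much of a hormone circulates free.

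RefSeq promoter sequences on the GRCr8 build were found for 3 of the 4 genes, with none for Serpina6. The 250 bases before the start were searched on both strands for the glucocorticoid receptor half-site AGAACA, the liver factor HNF1 half-site GTTAAT, the HNF3 core TGTTTA and the C/EBP site TTGCGCAA. These occur in 17.5%, 6.45%, 12.1% and 0.140% of 33469 promoters of that length. The Serpina7 and Gc promoters are shown because each holds 1 match, GTTAAT in capitals, while the Ttr window held none of the 4 strings. The Serpina7 window is chrX:107457682-107457931 on the minus strand, with the match at 38 to 33 bases before the start. The Gc window is chr14:18916005-18916254 on the plus strand, with the match at 194 to 189 bases before the start. A match of letters is a description and not a measured binding site.
Serpina7: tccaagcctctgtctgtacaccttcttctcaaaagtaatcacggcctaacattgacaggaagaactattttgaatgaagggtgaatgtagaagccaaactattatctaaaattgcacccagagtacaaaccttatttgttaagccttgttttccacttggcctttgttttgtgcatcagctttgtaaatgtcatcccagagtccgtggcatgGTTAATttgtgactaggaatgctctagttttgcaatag
Gc: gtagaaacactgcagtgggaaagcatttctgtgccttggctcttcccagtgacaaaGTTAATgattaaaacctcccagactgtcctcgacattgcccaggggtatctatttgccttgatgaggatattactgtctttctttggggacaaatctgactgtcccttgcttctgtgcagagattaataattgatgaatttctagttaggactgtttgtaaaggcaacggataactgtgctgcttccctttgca

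The arrays report signals without detection calls, and signals of different probe sets are not compared. Hepatocyte markers were measured on both designs, 10 of 10, and their summed signal ran between 78565 and 228622 in short-course controls and between 72226 and 125376 in long-course ones. The short-course median was 150611 in controls, then 80116, 114410, 109479, 141429 and 107485 from the 0.25-0.75 h window to the 30-72 h one. In the long course it was 78714 in controls, then 79700 at 6-18 h, 101467 at 24-48 h and 108972 at 72-168 h. The part of these sums in the changes below was not tested. The mean correlation of an array with the others of its course was 0.865 to 0.929 in the short course, with 9 arrays under 0.9, and 0.887 to 0.941 in the long course, with 1 under 0.9. In the long course 15 arrays had a mean log2 signal of the bacterial spike-in controls above 9 and 29 had a lower one, and all 11 arrays numbered replicate 4 were among the 15. The labels of 96 h replicate 1 disagree, with 72 hours in the description, and the array was placed by its title, as was 48 h replicate 1, whose description has the wording of the short course. In bulk liver RNA, fewer cells of a type and less RNA per cell cannot be told apart.

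Serpina6 signal was lower in each successive window of the long course and lowest at its end. Its signal in the 4 control arrays was 5392, 2464, 6482 and 6683, a mean of 5255 ± 1945 (SD, n = 4). It was 4173, 3546, 4227 and 4231 at 6 h and 2073, 2144, 2349 and 2084 at 18 h. All 6 h arrays still lay within the control range, and all 18 h arrays lay below the lowest control. At 36 h the values were 1852, 969.0, 1132 and 1496, and at 48 h they were 2066, 2329, 986.0 and 3191. The 48 h group thus overlapped the control range through 1 array. At 72 h the values were 2125, 771.4, 922.8 and 200.7, and at 168 h they were 184.5, 184.3, 106.0 and 540.2. No array of the last 3 times reached the lowest control.

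On the log2(signal + 32) scale, the Serpina6 change from control was -0.66 ± 0.37 (SE) at 6-18 h, with 6 of 16 arrays below the lowest control. Leaving out 1 array, it ranged from -0.99 without control replicate 2 to -0.51 without control replicate 4. The change was -1.62 ± 0.38 at 24-48 h, with 10 of 12 below. It was -3.61 ± 0.38 at 72-168 h, with 12 of 12 below, and reached -4.32 at 168 h. Every array below the lowest control was found for 0.855%, 0.819% and 1.35% of all 11106 probe sets tested in these windows, and since the contrast chose the gene nothing is read from its place among them. With the spike-in batch held to its 29 low arrays, the changes were -0.55, -1.47 and -3.32. Of these arrays 6 lie at 72-168 h, where 6 others are high, against 1 high control. At 168 h replicate 1 is the only low array, and the window change weights each time equally. With both batches, the 72-168 h change was -3.48 without 96 h replicate 1 and -3.64 with that array counted at 72 h. Neighbouring times in the order of mean levels lay within 1 SD of each other except 10 and 13 h, whose ranges overlapped, and 13 and 18 h, whose ranges did not.

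**Figure D1:**
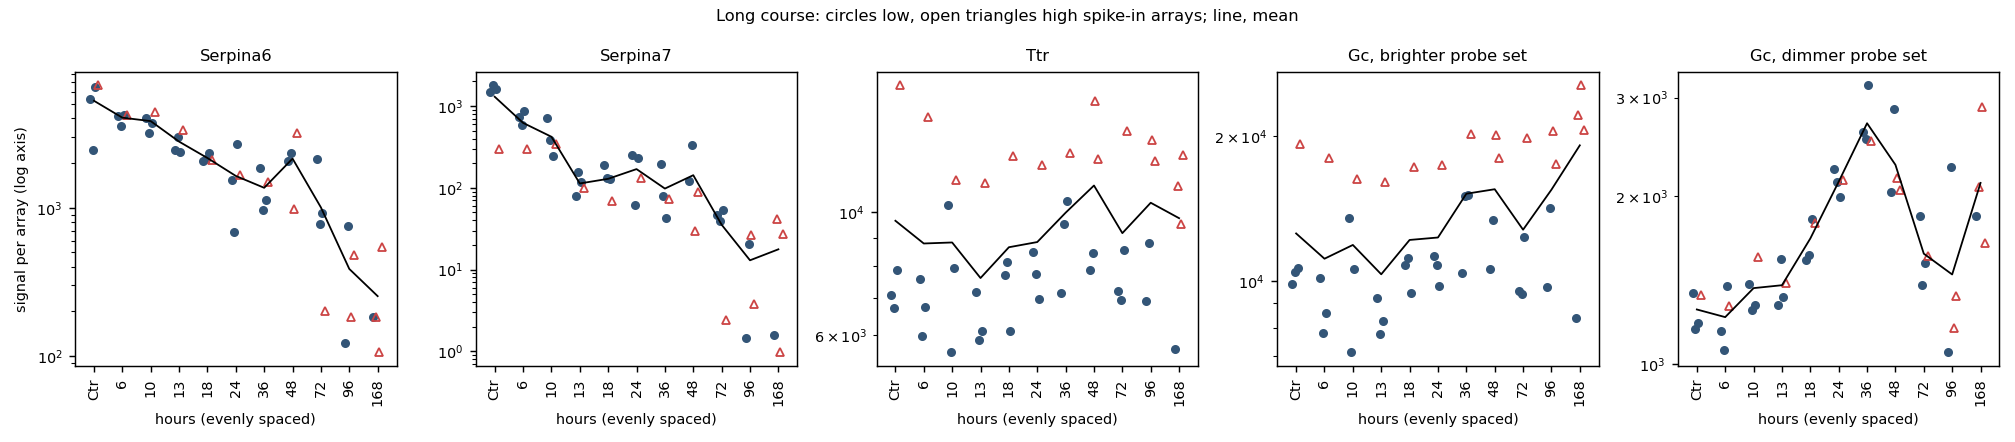
Signal per array (log axis) of the 5 carrier probe sets in the long course, by hours from control (evenly spaced), with circles for arrays of low spike-in signal, open triangles for high, and a line through group means. Serpina6 goes from a control mean of 5255 to 254 at 168 h and Serpina7 from 1301 to 17.7, while the triangles of Ttr and of the brighter Gc probe set lie above most circles.

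Serpina7 signal lay below the whole control range from 13 h on, in all but a single 48 h array. Its control signals were 1500, 1796, 1606 and 301, a mean of 1301 ± 678 (SD, n = 4), so that 1 control, replicate 4, was far below the others. At 6 h they were 724.9, 593.3, 877.0 and 297.1, and at 10 h 706.8, 386.7, 247.5 and 344.6. At 13 h they were 79.0, 156.4, 117.2 and 99.7, and this was the first time at which all 4 arrays lay below the lowest control. The level then stayed between group means of 97.9 and 169 up to 48 h, and those groups differed by less than 1 SD from their neighbours. At 72 h the values were 46.96, 38.8, 53.2 and 2.43, and at 168 h they were 1.58, 41.1, 0.969 and 27.1. The 72, 96 and 168 h group means, 35.3, 13.0 and 17.7, all lie under 35.7, the mean signal at which probe sets were filtered out, so their order is not read and the size of the change there is uncertain.

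The Serpina7 change was -2.01 ± 0.36 at 6-18 h, with 10 of 16 arrays below the lowest control, -2.93 ± 0.37 at 24-48 h, with 11 of 12 below, and -4.46 ± 0.37 at 72-168 h, with 12 of 12 below. The constant of 32 compresses such low signals: at 168 h the mean signal was 1.36% of the control mean, against 4.21% on the log2(signal + 32) scale. Without control replicate 4 the changes grew to -2.59, -3.51 and -5.04, and without control replicate 2 they shrank to -1.77, -2.69 and -4.22. Within the low spike-in arrays the changes were -2.44, -3.23 and -5.12, the last resting at 168 h on replicate 1 alone. The GAPDH 3'/5' log2 ratio, a measure of RNA integrity and labelling, moved along the same windows. It was 0.10 ± 0.20 (SD) in the long-course controls, 0.20 ± 0.21 at 6-18 h, 0.28 ± 0.13 at 24-48 h and 0.36 ± 0.05 at 72-168 h, and its part in the Serpina6 and Serpina7 changes was not tested.

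Ttr did not move beyond its spread in the long course. Its control signals were 7106, 6709, 7865 and 16916, and those at 168 h were 5666, 11160, 9514 and 12668. The groups overlapped at every time, and the changes were -0.14 ± 0.25, 0.11 ± 0.26 and 0.07 ± 0.26 at 6-18, 24-48 and 72-168 h. The group means ran from 7611 at 13 h to 11166 at 48 h, each within 1 SD of the next in order.

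Gc has a pair of probe sets in the long course, and they gave different courses. The brighter had control signals of 9878, 10455, 10647 and 19245 and changes of -0.15 ± 0.26, 0.20 ± 0.27 and 0.29 ± 0.27, all within its spread. The dimmer had control signals of 1343, 1159, 1185 and 1329, a mean of 1254 ± 95.5 (SD, n = 4). It read 2241, 2119, 1990 and 2139 at 24 h and 2603, 2527, 3157 and 2513 at 36 h, when its mean was 215% of control. All 12 arrays at 24-48 h lay above the highest control, a change of 0.89 ± 0.13, which was so for 0.837% of probe sets. It read 1578 ± 192 at 72 h. At 96 h it read 1051, 2254, 1161 and 1328, of which 1 array lay above the control range, 2 within it and 1 below. At 168 h it read 1841, 2073, 2884 and 1649, above every control. The platform annotation gives both the same accession. The part of the transcript that each probe set reads is not stated in the labels or annotation used here.

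The spike-in batch was not used to choose the genes, and its term in a limma fit with time groups was tested over all 11106 probe sets, of which 23% passed in either direction, 1250 higher and 1307 lower. Ttr was higher by 0.82 ± 0.07 in the high spike-in arrays (adjusted p = 1.65e-10), and higher at 11 of 11 times. The brighter Gc probe set was higher by 0.84 ± 0.08 (adjusted p = 2.83e-10), also at 11 of 11 times. Serpina7 was lower by 0.65 ± 0.20 (adjusted p = 0.0154), higher at only 2 of 11 times. With the replicate number as a block, the Serpina7 difference was -0.40 (limma adjusted p = 0.571), where all 11 replicate 4 arrays are high ones. The differences of Serpina6, -0.07 (adjusted p = 0.840), and of the dimmer Gc probe set, 0.00 (adjusted p = 0.978), did not pass. With the replicate block the Serpina6 difference was -1.12 (limma adjusted p = 0.0938), so its size depends on the model. Under quantile normalization, which pins the brightest probe sets to common values, the Ttr difference was 0.12 (adjusted p = 0.0261) and the Gc one -0.028 (adjusted p = 0.515). Within the low arrays, the Ttr change at 72-168 h was -0.06 and the Gc changes were -0.04 and 0.41 for the brighter and dimmer probe sets. At 168 h these values rest on replicate 1 alone.

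In the short course Serpina6 signal lay under the control mean in most arrays from the first time up to 18 h, and around or above it at 30-72 h. On the log2 scale 9 of 9 arrays lay below that mean at 0.25-0.75 h, a change of -0.29 ± 0.19. At 1-2 h 4 of 5 did, a change of -0.24 ± 0.22. The Serpina6 control signals were 10102, 5790, 16870.5 and 14659, a wide range. At 7 h they were 4614, 8302 and 4038, and at 8 h 6538, 6225 and 5842. All 17 arrays of 4-8 h lay below the control mean and 3 of 17 below the lowest control. Of the 6118 probe sets tested 2.09% had all 17 below the lowest control, and the share with 3 of 17 there was not computed. The change was -0.66 ± 0.18 at 4-8 h and -0.60 ± 0.22 at 12-18 h, and at 4-8 h it ranged from -0.97 without control replicate 2 to -0.45 without control replicate 3. It was -0.31 at 4-8 h without the 9 arrays of low correlation, among them control replicates 1 and 3. The GAPDH 3'/5' log2 ratio was 0.14 ± 0.14 (SD) in the controls, -0.02 ± 0.12 at 4-8 h and 0.13 ± 0.08 at 12-18 h. Its part in the Serpina6 changes was not tested. At 48 h the Serpina6 signals were 11052, 11071 and 11111, and at 72 h 16311 and 17166, a change of 0.61 ± 0.28. The second probe set annotated to Serpina6, M74776_at, had a mean signal of 98.0, just above the filter level of 91.2, and its change at 4-8 h was 0.35 ± 0.23. Its annotated gene number, unlike that of the brighter probe set, is not among the rat RefSeq genes, so it may not read rat Serpina6.

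Serpina7 in the short course was first high and then low against widely spread controls of 631.2, 5377, 2553 and 2442. At 0.75 h it read 5493, 4716 and 4626, and at 2 h 5435 and 4688. Only 1 array of 1-2 h exceeded the highest control, and the change was 1.07 ± 0.49. That change was 0.28 without the 9 low-correlation arrays and 0.50 without control replicate 1. It read 522.9 and 351.5 at 12 h, both below the lowest control, a change of -2.25 ± 0.63. At 30 h it read 1049 and 656.7, and at 48 h 3895, 2161 and 4513. The 48 h arrays lay inside the control range. The 4-8 h change was -0.53 ± 0.41, and -1.54 without the low-correlation arrays, -1.10 without control replicate 1 and -0.09 without control replicate 2.

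Ttr and Gc showed no change beyond their control spread in most short-course windows. Ttr control signals were 9181, 17316, 33436.5 and 27096, and those of Gc 8619, 12933, 28388.5 and 24416. The Ttr changes were -0.50 ± 0.22, -0.15 ± 0.25, -0.24 ± 0.20, 0.08 ± 0.25 and -0.06 ± 0.23 from the first window, 0.25-0.75 h, to the last, 30-72 h. The Gc changes were -0.80 ± 0.31, -0.26 ± 0.34, -0.42 ± 0.28, 0.09 ± 0.34 and -0.19 ± 0.32, with 4 of 9 arrays of the first window below the lowest control. Both had their lowest mean at 0.75 h, where Gc read 11102, 9135 and 4676, and their highest at 72 h, where it read 22662 and 30064.5. The GAPDH 3'/5' log2 ratio was 0.14 ± 0.14 (SD) in the controls and -0.04 ± 0.30 at 0.25-0.75 h, and its part in these values was not tested. The 0.25-0.75 h Ttr change was 0.024 under quantile normalization. It was -0.86 without control replicate 1 and -0.24 without control replicate 3, and the 4-8 h Ttr change was -0.60 and 0.02 without these arrays. The Gc change was -1.12 and -0.55 at 0.25-0.75 h and -0.74 and -0.17 at 4-8 h without the same arrays. The second Ttr probe set read 2956 in control replicate 1 against 12980 to 27636 in the others, and its 4-8 h change was 0.08, -0.60 without control replicate 1 and 0.47 without control replicate 3.

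**Figure D2:**
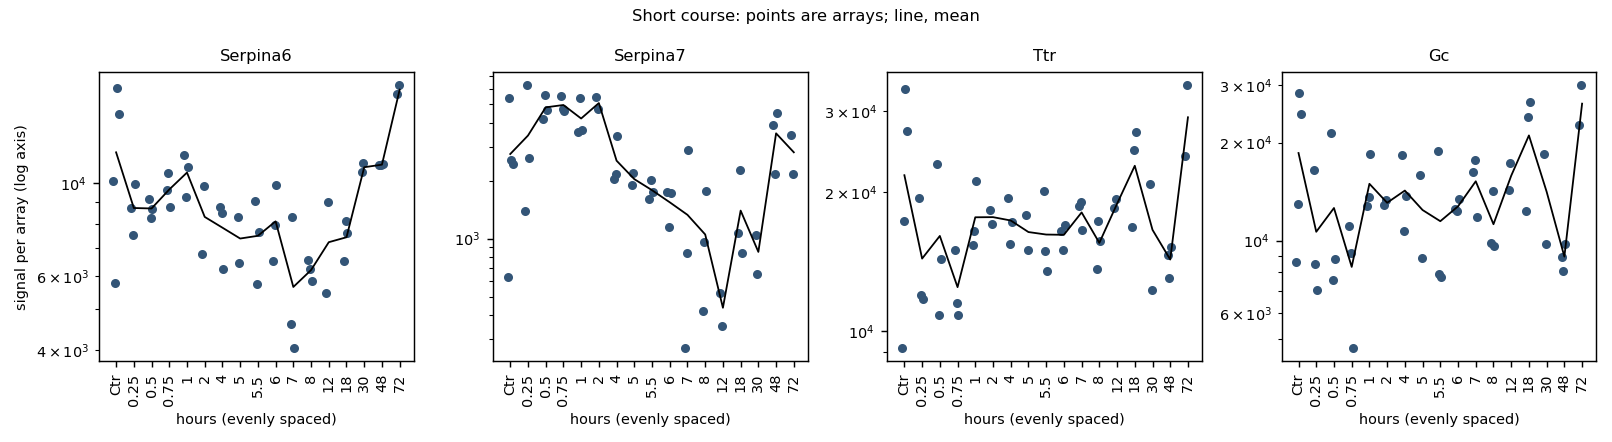
Signal per array (log axis) of the probe set standing for each carrier gene in the short course, by hours from control (evenly spaced), with a line through group means. Serpina7 reaches a mean of 437 at 12 h and is back at 3523 by 48 h, and the control points of Ttr and Gc span most of the range of all times.

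At the times that both courses share, Serpina6 stood at 68.4% (short) and 77.0% (long) of its control mean at 6 h, and at 62.7% and 41.1% at 18 h. At 48 h it stood at 93.4% and 40.8%, and at 72 h at 141% and 19.1%. Serpina7 stood at 56.1% and 47.9% at 6 h, 50.8% and 9.91% at 18 h, 128% and 11.0% at 48 h, and 102% and 2.72% at 72 h. Levels from the separately scaled designs are not set against each other, and the difference between courses was not tested.

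**Figure D3:**
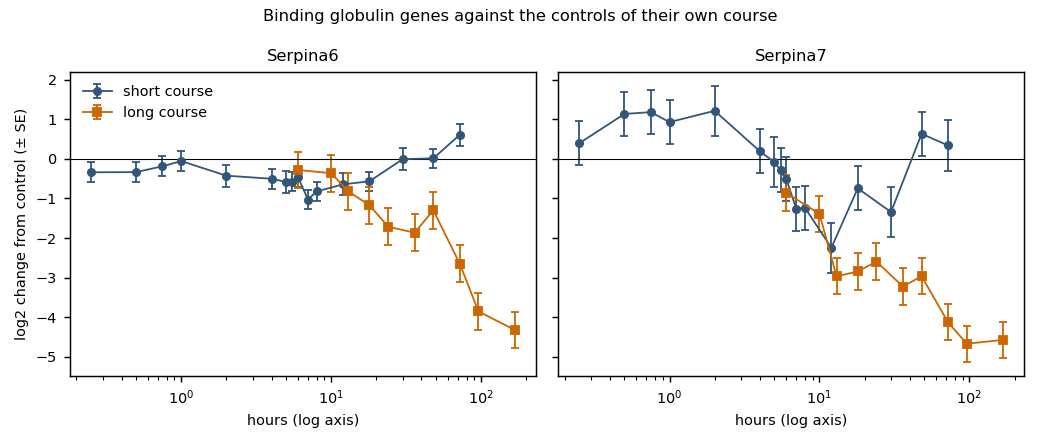
Log2 change from the controls of the same course (± SE) of Serpina6 and Serpina7, by hours on a log axis, circles for the short and squares for the long course. The 72 h circle and square lie at 0.61 and -2.65 for Serpina6 and at 0.34 and -4.13 for Serpina7.

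Replicate arrays of 1 time also differed from each other, and the deviations of Ttr and Gc ran together. Correlations of deviations from the time-group means were computed for 24 relations. The family was added after the correlation of Ttr and Gc and those of both with the GAPDH 3'/5' ratio had been seen, so the values are a description and no p is given. In the short course Ttr and Gc had r = 0.907 and rho = 0.938 over 47 arrays, and r = 0.917 without the 2 arrays farthest in Ttr. In the 29 low spike-in arrays of the long course they had r = 0.944 and rho = 0.943, and r = 0.906 without 2 arrays. The GAPDH 3'/5' ratio moved with these genes in the short course, with r = 0.747 and rho = 0.808 for Gc and r = 0.649 and rho = 0.785 for Ttr. Without 2 arrays these r were 0.785 and 0.789. Serpina6 ran with the ratio too, with r = 0.377 and rho = 0.491, and r = 0.310 without 2 arrays, and with Gc, with r = 0.472 and rho = 0.485, and r = 0.486 without 2 arrays. In the low spike-in long-course arrays the ratio had r = -0.24 with Gc, -0.22 with Ttr and -0.0079 with Serpina6. Serpina6 and Serpina7 had r = -0.29 in the short course and 0.492 in the low spike-in arrays of the long, against 0.341 over all 44 long-course arrays.

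**Figure D4:**
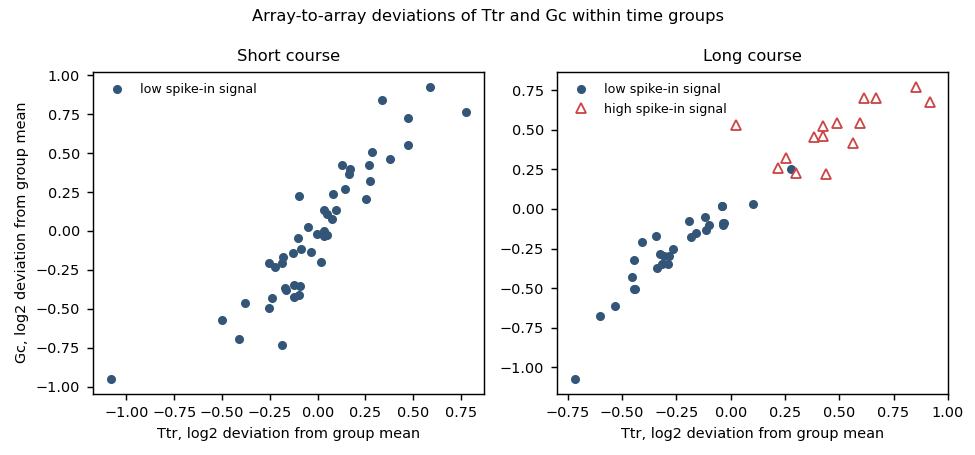
Deviation of each array from its time-group mean in log2 signal, Ttr on the x axis and Gc on the y axis, for the short course and for the long course, where open triangles mark high spike-in arrays. The points run along a rising line in both courses, and the triangles lie at positive deviations of Gc.

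The genes whose group means ran most like each carrier were named by Pearson correlation over the groups of a course, as a description without a p. Over 11 long-course groups, Serpina6 ran with Mug1 (r = 0.984), Abi3bp (0.964) and Aldh1a1 (0.964), and Serpina7 with App (0.980), Ap1ar (0.970) and Snx5 (0.968). Ttr ran with Hrg (0.966), Svs1 (0.942) and Mgst1 (0.937), and Gc with Hp (0.995), Alb (0.987) and Zfp532 (0.983). Over 17 short-course groups, Serpina6 ran with Agxt2 (0.897), Spp2 (0.890) and Klkb1 (0.879), and Serpina7 with Nucb1 (0.916), Fstl1 (0.887) and Man1a1 (0.878). Ttr ran with Apoc3 (0.982), Apoe (0.975) and Serpina1 (0.970), and Gc with Fga (0.971), Apoe (0.968) and Serpina1 (0.967). The groups of a course share their control arrays, scaling and batches.

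Related genes were read from 5 lists of carriers, serpins, thyroid hormone, vitamin D and glucocorticoid handling, with the 4 carriers left out. The lists were chosen with earlier results of these data known, and the glucocorticoid list also holds Tat, an induced enzyme. Their counts beside the shares of all probe sets are therefore a description, and nothing is read from an excess. The arrays counted for a list gene are those on the same side of the log2 control mean as its change. They need not lie beyond the control range. Genes that did not pass can also have all arrays on that side, as Orm1 had at 4-8 h of the short course (17 of 17). At 72-168 h of the long course 12 of 74 list genes rose and 4 fell by limma's test, where 4.81% and 6.01% of all probe sets did, and the list median was 0.10 against -0.03 for all. Of 16 glucocorticoid-handling genes 6 rose and 2 fell. Fkbp5, a co-chaperone of the receptor, rose by 2.03 ± 0.26 (adjusted p = 6.29e-07, 12 of 12 arrays), and Nr1i3, a nuclear receptor of drug metabolism, by 1.31 ± 0.19 (adjusted p = 2.85e-06, 12 of 12). Akr1d1, which reduces steroids, fell by 1.39 ± 0.35 (adjusted p = 0.00546, 12 of 12), and H6pd, which feeds the corticosterone-regenerating enzyme Hsd11b1, rose by 1.22 ± 0.18 (adjusted p = 4e-06, 12 of 12).

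Of 15 thyroid-hormone genes at 72-168 h, 2 rose and 1 fell. The sulfotransferase Sult1a1 rose by 2.70 ± 0.32 (adjusted p = 8.2e-08) and the lipogenic target Thrsp by 1.81 ± 0.36 (adjusted p = 0.000458), and the transporter Slco1a4 fell by 1.74 ± 0.35 (adjusted p = 0.000484), each in 12 of 12 arrays. Of 21 genes listed as other plasma carriers 2 rose and 1 fell. Igfbp2, which binds insulin-like growth factors, fell by 3.63 ± 0.40 (adjusted p = 1.51e-08), Orm1, the acute-phase orosomucoid, rose by 2.02 ± 0.36 (adjusted p = 9.98e-05), and the cobalamin carrier Tcn2 rose by 0.58 ± 0.19 (adjusted p = 0.0410), each in 12 of 12 arrays. Among 13 serpins, Serpina3n rose by 0.75 ± 0.23 (adjusted p = 0.0262, 11 of 12 arrays) and Serpina11 by 0.57 ± 0.16 (adjusted p = 0.0165, 12 of 12). Of 11 vitamin D and retinol genes 0 passed limma's adjusted threshold and 3 had an unadjusted p under 0.05. The share of all probe sets with such an unadjusted p was not computed. Summed Kupffer-cell markers, 7 of 10 measured, lay between 2544 and 3110 in control arrays and between 1242 and 3603 at 72-168 h, and their part in these changes was not tested. Leaving out 1 array gave 8 to 14 risers and 3 to 5 fallers over all lists, with 8 risers without control replicate 3. The risers among other carriers were 1 in 8 of 16 such fits, and those among serpins were 0 without control replicate 3 and 1 without control replicate 1 or 4. The vitamin D and retinol risers were 2 without 72 h replicate 1 or 96 h replicate 2. The fallers among glucocorticoid-handling genes were 1 in 9 of 16 such fits.

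At 6-18 h of the long course 7 of 74 list genes rose and 1 fell by the same test, where 4.64% and 4.67% of all probe sets did. The list median was -0.10 against -0.03 for all. The count of risers was 4 without control replicate 3, and that of fallers 7 without control replicate 2 and 0 without control replicate 1 or 3. Fkbp5 rose by 1.73 ± 0.26 (adjusted p = 1.6e-05), Sult1a1 by 1.67 ± 0.31 (adjusted p = 0.000315), Tat, the classical induced enzyme, by 1.41 ± 0.27 (adjusted p = 0.000424) and Orm1 by 1.39 ± 0.35 (adjusted p = 0.00708), each in 16 of 16 arrays. Serpina3n rose by 0.78 ± 0.22 (adjusted p = 0.0190, 16 of 16) and H6pd by 0.70 ± 0.17 (adjusted p = 0.00603, 15 of 16). Akr1d1 fell by 1.18 ± 0.34 (adjusted p = 0.0205, 16 of 16). Of the vitamin D and retinol genes 0 passed limma's adjusted threshold and 0 had an unadjusted p under 0.05, a share not computed for all probe sets. Of the calls over all probe sets 49.8% were higher, and 61.9% under median centring. Summed Kupffer-cell markers had a median of 2710 in control arrays and 1972 at 6-18 h, where they lay between 1123 and 2755, and their part in these changes was not tested.

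At 4-8 h of the short course 6 of 56 list genes rose and 17 fell by limma's test, where 16.4% and 10.5% of all probe sets did, and the list median was -0.27 against 0.10 for all. These counts rest on few controls. They were 3 and 8 without control replicate 3, 17 became 7 without control replicate 4, and they were 2 and 1 without the 9 low-correlation arrays. Of the calls over all probe sets 60.9% were higher, and 42.6% under median centring, which moved the median of all from 0.10 to -0.02. Summed neutrophil markers, 4 of 8 measured, lay between 147 and 679 in control arrays and between 605 and 4822 at 4-8 h. That sum is mostly S100a8 and S100a9, at the 75.8 and 77.7 percentiles of mean signal. Cxcr2 and Mmp8 lay at 31.9 and 23.5, near or under the filter. Summed endothelial markers, 4 of 8 measured, lay between 1109 and 1333 in control arrays and between 1844 and 3368 at 4-8 h, without overlap. Summed hepatocyte markers had a median of 150611 in control arrays and 109479 at 4-8 h. The GAPDH 3'/5' log2 ratio was 0.14 ± 0.14 (SD) in the controls and -0.02 ± 0.12 at 4-8 h. The part of these markers and of the ratio in the list changes was not tested.

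Of 17 genes listed as other plasma carriers 0 rose, 6 fell and 8 had an unadjusted p under 0.05. The share of all probe sets with such an unadjusted p was not computed, so nothing is read from the 8. The heme carrier Hpx fell by 4.40 ± 1.24 (adjusted p = 0.00788, 16 of 17 arrays) and the hemoglobin carrier Hp by 2.13 ± 0.68 (adjusted p = 0.0186, 17 of 17). Igfals, which holds growth factor complexes in plasma, fell by 1.24 ± 0.23 (adjusted p = 0.000141, 17 of 17). Ttpa, which binds vitamin E inside the cell and is not a secreted carrier, fell by 0.92 ± 0.34 (adjusted p = 0.0419, 16 of 17). The SEs of Hpx and Hp are wide. The bright Alb and Ahsg probe sets, at the 98.1 and 99.6 percentiles of mean signal, read 0.15 and 368 in their lowest short-course arrays. The part of such low readings in the Hpx and Hp falls was not tested. At 6-18 h of the long course Hpx, Hp, Igfals and Ttpa changed by -0.11 ± 0.24, -0.16 ± 0.28, -0.63 ± 0.35 and -0.24 ± 0.23 and did not pass. The 6 fallers of 4-8 h became 2 without control replicate 3 and 1 without control replicate 4. Of 9 serpins 1 rose and 3 fell. Serpina3m rose by 1.15 ± 0.39 (adjusted p = 0.0270, 17 of 17), while Serpind1, heparin cofactor II, fell by 0.81 ± 0.31 (adjusted p = 0.0464, 16 of 17), Serpina4, or kallistatin, by 0.75 ± 0.17 (adjusted p = 0.00102, 17 of 17) and Serpina3c by 0.54 ± 0.18 (adjusted p = 0.0279, 17 of 17). The 3 became 1 without control replicate 3 or 4, and the riser was lost without control replicate 2 or 3 or 5 h replicate 2.

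Of 10 thyroid-hormone genes 2 rose and 4 fell at 4-8 h. The bile acid transporter Slc10a1 fell by 1.69 ± 0.49 (adjusted p = 0.00929), the deiodinase Dio1 by 1.11 ± 0.35 (adjusted p = 0.0171) and the transporter Slco1a4 by 1.09 ± 0.31 (adjusted p = 0.00931), and the receptor Thra rose by 0.97 ± 0.29 (adjusted p = 0.0123), each in 17 of 17 arrays. At 6-18 h of the long course Slc10a1, Dio1, Slco1a4 and Thra changed by -0.12 ± 0.23, 0.05 ± 0.14, -0.41 ± 0.34 and -0.002 ± 0.22 and did not pass. The 4 fallers of 4-8 h were 0 without control replicate 1 and 2 without control replicate 3 or 4. The 2 risers were 0 without control replicate 3. Of 11 vitamin D and retinol genes 2 rose and 2 fell. The retinoid receptor Rxrg fell by 1.43 ± 0.39 (adjusted p = 0.00644) and the endocytic receptor Lrp2 by 0.67 ± 0.16 (adjusted p = 0.00195), while its partner Cubn rose by 0.99 ± 0.22 (adjusted p = 0.00102) and the sterol hydroxylase Cyp27a1 by 0.60 ± 0.12 (adjusted p = 0.000296), each in 17 of 17 arrays. Of 11 glucocorticoid-handling genes 1 rose and 2 fell. Akr1d1 fell by 1.27 ± 0.22 (adjusted p = 6.16e-05), the glucocorticoid receptor gene Nr3c1 fell by 0.56 ± 0.19 (adjusted p = 0.0273) and Tat rose by 0.79 ± 0.23 (adjusted p = 0.0108), each in 17 of 17 arrays. The riser was lost without control replicate 1 or 4, and 1 faller without control replicate 3 or 4.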

How the data were processed

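The authors deposited 1 signal intensity per probe set and array, on a linear scale, in a table per array design with 8799 and 15923 probe sets. The scanner software is not given in the sources used here. One short-course array, 6 h replicate 3, was multiplied by 5.33 to the common scale. Affymetrix control probe sets (59 and 57) and those below the 30th percentile of mean signal were left out. All arrays of a course entered a single limma 3.58.1 fit (R 4.3.3) of group means of log2(signal + 32), with Benjamini-Hochberg adjustment over all probe sets tested and a threshold of 0.05. The code was tested on simulated data. The number of arrays limits the precision.

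Members and lists were chosen with earlier results of these data known. Named genes were the members, each standing for its brightest probe set, the 3 genes most correlated with each, and up to 4 genes per list and window with the largest change past the threshold. Alternatives were quantile normalization, median centring, other constants, array weights, blocks, batch terms, probe-set averaging and left-out arrays. Correlations between arrays were not among the tests planned and were added after the correlation of Ttr and Gc and those of both with GAPDH had been seen, so they are given without a p.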

Additional observations from a re-analysis of the deposited data

Results flagged for a closer look

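In 61 long-course and control groups of 4 arrays, 5 had an array far from the other 3 by Dixon's 95% limit, where chance flags about 1 in 20 groups. Serpina6 read 3546 at 6 h in replicate 2, against 4173 for the nearest. Ttr read 16916 in control replicate 4, against 7865 for the nearest, and the brighter Gc probe set read 19245 in the same array, against 10647. That array is the one control with a high spike-in signal. The dimmer Gc probe set read 3157 at 36 h in replicate 3, against 2603, and 2865 at 48 h in replicate 2, against 2154.

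At 4 of 16 gene and time pairs shared by the courses, every short-course array lay above the control mean of its course on the log2 scale and every long-course array below its own, and the difference was not tested. The short-course log2 change exceeded the long-course one by 1.31 for Serpina6 at 48 h and 3.25 at 72 h. The short-course change of Serpina6 at 48 h was 0.014, and its mean signal was 93.4% of the mean control signal, so on that scale both courses lay below control. For Serpina7 it did so by 3.60 at 48 h and 4.47 at 72 h.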

How the results depend on the processing

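Across the alternatives other than leaving out single arrays, 414 member changes moved by less than 1 SD and 8 by more. Quantile normalization gave Ttr 0.024 at 0.25-0.75 h and 0.16 at 4-8 h of the short course, and a spike-in difference of -0.028 for Gc. Without low-correlation arrays, short-course Serpina6 was 0.15 at 1-2 h and -0.31 at 4-8 h, Serpina7 0.28 and -1.54, and list genes 2 higher and 1 lower. Averaged over probe sets, which mixes in the dim and doubtful M74776_at, short-course Serpina6 was 0.064 at 0.25-0.75 h and -0.15 at 4-8 h. With 6 h replicate 3 on its deposited scale, 1 list gene was higher at 4-8 h. Fallers at 6-18 h numbered 3 under quantile normalization, 4 with array weights, and 2 with probe-set averaging, the spike-in term or low spike-in arrays only. The cause was not tested.

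Replicate numbers were not taken to pair the samples, since a correlation over 0.1 was found for 88 of 338 pairs of same-numbered arrays in the short course and 75 of 220 in the long, with means of -0.0061 and 0.05. In the long course the number is bound up with the batch, as all 11 replicate 4 arrays are high in spike-in signal. With the replicate block, 7 short-course list genes fell, and the Serpina7 spike-in difference was -0.40 (limma adjusted p = 0.571). The Serpina6 one was -1.12 (limma adjusted p = 0.0938), against -0.07 without the block.

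Leaving out 1 array, the second Ttr probe set ranged over -0.996 to 0.075, -0.57 to 0.50, -0.60 to 0.47, -0.28 to 0.79 and -0.66 to 0.41 in the 5 short-course windows, low without control replicate 1 and high without control replicate 3. List genes numbered 3 to 7 higher and 7 to 20 lower at 4-8 h, and 4 to 8 higher and 0 to 7 lower at 6-18 h. Low signal limits Serpina7 from 72 h on.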
